A study of Mus musculus with 17 samples.

Results

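The solute carrier (Slc) genes described here are the 193 genes whose row of the deposited expression table bears 1 symbol of its own that begins with Slc and a digit, and whose level was at least 1 FPKM in at least 4 of the 8 columns of the table. FPKM, fragments scaled by transcript length and by all mapped fragments, is a level per length, so levels of different genes can be compared. In all, 333 Slc genes had a row of their own. Of these, 140 were below the rule, 126 of them at under 1 FPKM in each of the 8 columns, and 176 of the 193 carriers reached 1 FPKM in every column. Levels in the same columns chose the carriers, so that they are expressed in the gland is not a result. Carriers that met the rule only through the columns where they are high had to differ between columns. Just inside the rule, Slc22a21 had a 4th highest value of 1.03 FPKM and Slc25a47 one of 1.10, and just outside it Slc2a6 had 0.862 and Slc8a1 0.849. The carriers were sorted by family into substrate classes, apart from 4 genes that carry the name but move no solute. The largest classes were 36 mitochondrial carriers, 29 amino acid carriers, 23 metal carriers, 21 carriers of nucleosides and nucleotide sugars, 18 ion carriers, 17 organic ion carriers, 13 glucose carriers and 10 monocarboxylate carriers. Smaller classes held 7 phosphate, 6 vitamin, 4 peptide and 3 fatty acid carriers, and 2 carriers were placed in no class.

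Polyadenylated RNA of whole mammary glands was sequenced from female C57Bl/6 mice that were nulliparous and had 1 of 4 genotypes. WT is wild type. AROM mice carry tet-op-CYP19A1, a transgene for human aromatase, the enzyme that makes oestrogens from androgens. CERM mice carry tet-op-Esr1, a transgene for the oestrogen receptor alpha. Both transgenes are driven through MMTV-rtTA, a tetracycline-dependent activator under the mouse mammary tumour virus promoter, which is active mainly in mammary epithelium. BRCA mice have the genotype Brca1fl11/fl11/MMTV-Cre/p53+/-, in which Cre under the same promoter removes a floxed part of Brca1 and which is heterozygous for p53. The sources used here do not give the age of the mice, whether they received an inducer of the activator or whether glands were pooled.

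The labels list 17 libraries, of which 2 per genotype were read from a single end, while 1 WT, 3 AROM, 3 CERM and 2 BRCA libraries were read from paired ends. The table holds 1 value per gene, genotype and layout, so no value has a replicate error, no test between genotypes could be run, and a difference is given as a ratio in each layout. Depth is unknown. The protocol in the labels has libraries sequenced both ways, so single- and paired-end columns may share animals and are not independent replicates. Among the 193 carriers the median distance between the 2 layouts of 1 genotype, as an absolute log2 ratio of FPKM + 1, was 0.15 for WT, 0.29 for AROM, 0.16 for CERM and 0.05 for BRCA. For 95% of carriers it stayed within 0.36 (WT), 0.72 (AROM), 0.64 (CERM) and 0.14 (BRCA). Past 2-fold between layouts were 0 carriers of WT (all genes 0.614% higher and 0.942% lower in paired-end), 2 of AROM (both higher, all genes 0.839% and 0.934%), 4 of CERM (3 higher and 1 lower, all genes 1.63% and 0.77%) and 0 of BRCA (all genes 0.623% and 0.657%). A carrier is called higher or lower below only when the ratio of FPKM + 1 was at least 2-fold in the same direction in both layouts. Both WT columns hold values with the repeating decimals that a mean of 3 values has (46.7% of single-end and 43.3% of paired-end values), although the labels give 2 and 1 WT libraries. The sources used here do not say what was averaged in them, and each comparison with WT carries that limit. The engineered genes did not all check the labels. Cyp19a1 was listed at 0 apart from 0.0591 FPKM (single-end) and 0.0502 (paired-end) in AROM, and a human transgene need not align to the mouse gene. Esr1 was at 7.27 and 6.89 FPKM in WT, 8.41 and 7.87 in AROM, 8.49 and 8.41 in CERM and 6.59 and 6.48 in BRCA, so that its level does not mark the CERM columns. Trp53, the p53 gene, was at 41.1 and 34.5 in WT, 29.5 and 20.9 in AROM, 28.0 and 25.0 in CERM and 12.3 and 12.1 in BRCA. It was thus lowest in BRCA but below WT in AROM and CERM too. Brca1, at 1.13 and 0.851 in WT, was at 3.28 and 3.29 in BRCA, a value over the whole locus that does not report on the deleted part.

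Solute carriers are membrane proteins that move sugars, amino acids, ions, metals and metabolites across the plasma membrane and the membranes of organelles, either down a gradient or coupled to the gradient of sodium, protons or another solute. In the mammary gland the luminal epithelium uses them to supply milk synthesis with glucose, amino acids, phosphate, zinc and calcium. Fat cells, which make up much of a nulliparous gland, take up glucose through the insulin-responsive carrier Slc2a4 and export citrate from mitochondria for fatty acid synthesis through Slc25a1.

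The results turn on carriers that were lower than in WT in both layouts, in AROM (Slc15a2, Slc5a1), in BRCA (Slc25a1) or in both (Slc39a8). The bases before the transcription starts of these 4 are shown. They were picked after a motif search to show the 3 carriers with the E-box letters CACGTG and, without them, Slc15a2 and the first start of Slc39a8, so their share here is not that of the lower carriers, which is given below. The sequences are RefSeq's on GRCm38.p6, a later build than the mm9 of the files, and were matched by symbol. Each line gives the 250 bases before the start, 5′ to 3′ on the gene's strand, with CACGTG in capitals where present.
Slc15a2, chr16:36784963-36785212, minus strand: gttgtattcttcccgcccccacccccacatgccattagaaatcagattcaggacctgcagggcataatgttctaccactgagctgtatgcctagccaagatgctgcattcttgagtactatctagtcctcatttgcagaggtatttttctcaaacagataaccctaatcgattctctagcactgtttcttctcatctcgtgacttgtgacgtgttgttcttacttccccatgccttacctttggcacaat
Slc5a1, chr5:33103969-33104218, plus strand: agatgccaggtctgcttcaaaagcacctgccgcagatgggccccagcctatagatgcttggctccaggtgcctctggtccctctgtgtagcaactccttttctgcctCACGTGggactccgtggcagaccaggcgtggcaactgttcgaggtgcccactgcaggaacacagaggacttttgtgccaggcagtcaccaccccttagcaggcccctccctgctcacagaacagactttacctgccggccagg
Slc39a8, first of 2 starts, chr3:135825029-135825278, plus strand: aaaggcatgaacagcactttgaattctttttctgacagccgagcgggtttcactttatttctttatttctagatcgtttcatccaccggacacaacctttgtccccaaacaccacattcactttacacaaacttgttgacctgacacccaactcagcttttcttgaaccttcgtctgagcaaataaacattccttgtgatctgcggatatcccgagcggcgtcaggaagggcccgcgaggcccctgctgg
Slc39a8, second of 2 starts, chr3:135825407-135825656, plus strand: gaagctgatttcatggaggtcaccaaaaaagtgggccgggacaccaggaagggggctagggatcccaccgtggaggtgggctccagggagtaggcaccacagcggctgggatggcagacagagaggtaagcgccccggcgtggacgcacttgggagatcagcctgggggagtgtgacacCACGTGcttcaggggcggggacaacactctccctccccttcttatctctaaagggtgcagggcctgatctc
Slc25a1, chr16:17928220-17928469, minus strand: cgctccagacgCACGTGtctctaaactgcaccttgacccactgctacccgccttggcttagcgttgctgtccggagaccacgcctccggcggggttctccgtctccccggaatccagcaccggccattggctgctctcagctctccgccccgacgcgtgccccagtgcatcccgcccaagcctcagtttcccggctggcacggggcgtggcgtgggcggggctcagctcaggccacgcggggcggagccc

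Promoter windows of 300 bases, 250 before and 50 after the start, were at hand for 151 of the 193 carriers and for 15 of the 19 carriers called in any genotype. Of the 13 carriers called lower, 9 had windows, 10 in all. CACGTG, which is its own reverse complement, was in 3 of these 10 windows, and in 7.15% of all 32817 mouse windows of the same length. Counted from the start, it began at base -143 in Slc5a1, -71 in Slc39a8 and -239 in Slc25a1. TTCNNNGAA, the letters of STAT binding sites and again the same on both strands, was in 0 of the 10 windows and in 8.29% of all windows. GGGCGG, the GC box, was on either strand in 7 of the 10 and in 35.6% of all, and CCAAT on either strand in 3 of the 10 and in 37.4% of all. Motifs were counted each on its own, whether or not their letters overlapped. A match describes letters only, and a missing one says nothing of a factor.

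In levels, the carriers spanned from a mean over the 8 columns of 0.981 FPKM for Slc22a21, an organic cation and carnitine carrier, to 811 FPKM for Slc25a4, the ADP/ATP carrier of heart and muscle mitochondria. Mitochondrial carriers held the top of the order, with Slc25a1, the citrate carrier, at a mean of 295 FPKM, Slc25a5, another ADP/ATP carrier, at 250 and Slc25a3, the mitochondrial phosphate carrier, at 247. The highest amino acid carrier was Slc1a5, a sodium-dependent exchanger of glutamine and other neutral amino acids, at 205 FPKM, and the highest glucose carrier was Slc2a4 at 107. The highest fatty acid, metal and monocarboxylate carriers were Slc27a1, at 60.6, Slc39a1, a zinc importer, at 48.7, and Slc16a1, which moves lactate and pyruvate, at 19.3. The highest ion carrier was Slc24a3, a sodium/calcium-potassium exchanger, at 21.1.

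In their median ratios to WT the carriers did not stand apart from other genes. The median log2 ratio of FPKM + 1 between AROM and WT was -0.04 in single-end and -0.06 in paired-end columns over the 193 carriers, and -0.00 and -0.08 over all 11565 genes analysed under the same level rule. Between CERM and WT it was -0.05 and 0.05, against -0.05 and 0.04 over all genes. Between BRCA and WT it was 0.04 and 0.10, against 0.03 and 0.10. Each was smaller than the median distance between the WT layouts (0.15). Its sign changed under at least 1 scaling in the paired-end columns of all 3 genotypes and in the single-end column of BRCA. Quantile normalization moved the median of all genes between BRCA and WT in the paired-end columns by -0.14, and no other scaling moved it by over 0.1 in any comparison.

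**Figure D1:**
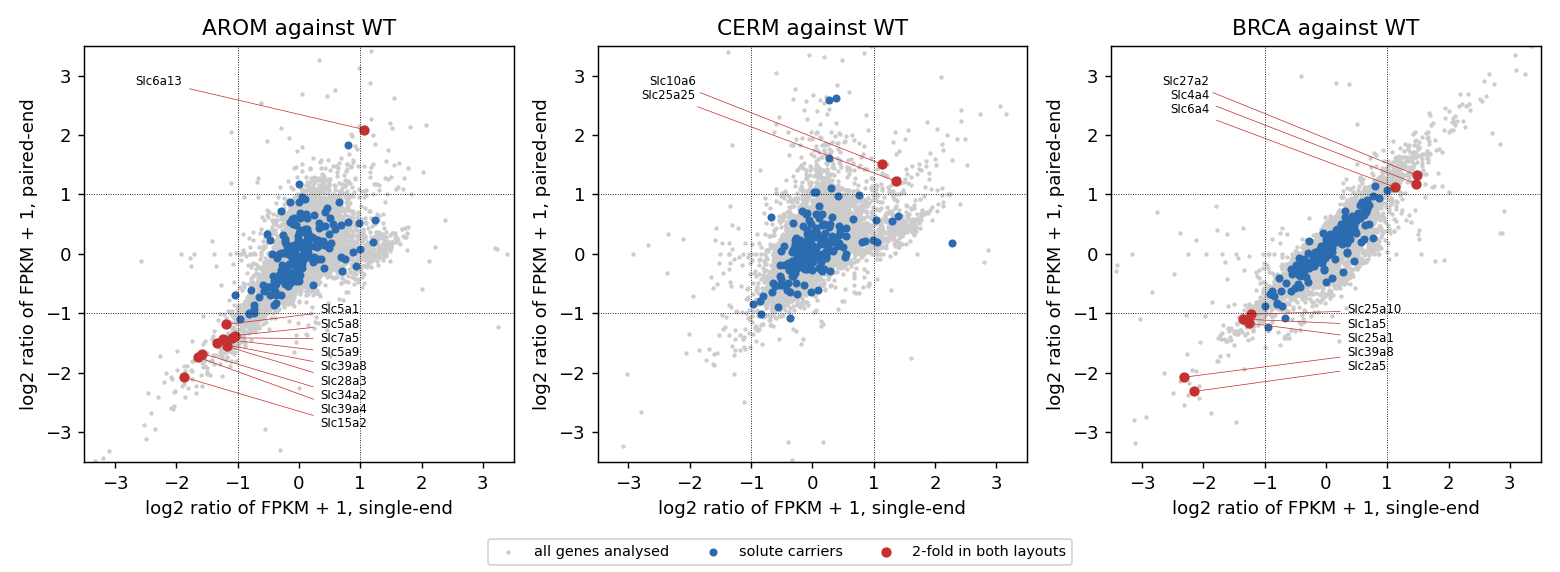
Log2 ratio of FPKM + 1 to WT in the single-end columns (horizontal) and the paired-end columns (vertical) for AROM, CERM and BRCA. Grey points are all genes analysed, blue points the solute carriers and red points the carriers at least 2-fold from WT in both layouts, with dotted lines at 2-fold, and grey points beyond the axes are not drawn. Of the red points, 9 of 10 lie low in AROM, 2 of 2 lie high in CERM, and 5 of 8 lie low in BRCA.

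In AROM, 9 carriers were lower than in WT in both layouts and 1 was higher. That is 4.66% of the carriers lower, against 1.34% of all genes analysed, and 0.518% higher, against 0.38%. The 9 take up substrates of 7 classes, namely peptides, zinc and other metals, phosphate, glucose, nucleosides, large neutral amino acids and monocarboxylates. With 1 FPKM required in all 8 columns 6 were lower, without Slc34a2, Slc5a8 and Slc5a9, and the share of all genes under that rule is not given here. In 8 of the 9, AROM held the lowest level of the 4 genotypes in both layouts, and in Slc39a8 BRCA did. The 9 were picked for low AROM levels, which favours that order, and the share among all genes called lower is not given here. In single-end columns alone 10 carriers were lower and 3 higher in AROM (all genes 1.62% and 2.29%), and in paired-end columns alone 12 and 3 (all genes 2.84% and 2%).

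Slc15a2, a proton-coupled importer of small peptides, was at 21.1 FPKM in single-end and 16.5 in paired-end WT, 5.05 and 3.15 in AROM, 14.2 and 11.1 in CERM, and 10.9 and 10.4 in BRCA. WT was the highest and AROM the lowest in both layouts, with no overlap between the columns of AROM and those of any other genotype. The ratio of WT to AROM was 4.17 and 5.24. Slc34a2, the sodium-phosphate cotransporter of secretory epithelia, was at 5.13 and 4.34 FPKM in WT, 1.06 and 0.67 in AROM, 5.60 and 3.56 in CERM and 2.26 and 2.34 in BRCA. WT and CERM overlapped, BRCA was between them and AROM, and WT was 4.83 and 6.48 times AROM. Slc20a1 and Slc20a2, widely expressed phosphate importers, spanned narrower ranges of 10.8 to 18.3 and 13.1 to 17.1 FPKM across the 8 columns.

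Both metal carriers called in AROM belong to the zinc importer family Slc39. Slc39a4, the zinc importer that is mutated in inherited zinc deficiency, was at 8.49 and 6.53 FPKM in WT, 2.05 and 1.25 in AROM, 4.28 and 3.37 in CERM and 8.18 and 8.57 in BRCA. BRCA overlapped WT, while both CERM columns lay between WT and AROM. Slc39a8, an importer of zinc, manganese and iron, was at 14.7 and 12.2 FPKM in WT, 5.21 and 3.67 in AROM, 7.07 and 6.39 in CERM and 2.15 and 2.13 in BRCA. It is the 1 carrier called lower in both AROM and BRCA, 2.83 and 3.32 times below WT in AROM. Other metal carriers shared the direction by less. Of the 23, 17 were below WT in both layouts (73.9%, against 40.3% of all genes) and their median log2 ratio was -0.18 and -0.34. After median-ratio scaling or quantile normalization 14 of the 23 were below, and the medians remained negative in both layouts. The share of all genes below after scaling is not given here. Their median was -0.01 and 0.02 after median-ratio scaling and -0.02 and -0.02 after quantile normalization. Slc30a4, which loads zinc into vesicles and is needed for zinc in mouse milk, was at 11.4 and 9.70 FPKM in WT and 6.48 and 4.36 in AROM, without passing 2-fold in both layouts. Slc40a1, the iron exporter, was at 10.0 and 9.54 in WT and 6.05 and 5.35 in AROM. At the other end of the class were Slc41a3, a magnesium carrier, with log2 ratios of 0.76 and -0.09, and Slc39a13, a zinc carrier of the secretory pathway, with 0.34 and 0.46.

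Among sugar carriers, Slc5a1, the sodium-glucose cotransporter also known as SGLT1, was at 6.88 and 4.32 FPKM in WT, 2.46 and 1.33 in AROM, 5.04 and 3.39 in CERM and 5.52 and 5.19 in BRCA. AROM alone stood below the rest, with WT at 2.8 and 3.23 times its level. Slc5a9, a sodium-coupled carrier of mannose and glucose, was at 3.41 and 2.95 in WT, 0.869 and 0.466 in AROM, 1.47 and 0.956 in CERM and 2.43 and 2.52 in BRCA. Slc2a9, a urate carrier of the glucose family, was 2-fold lower in AROM in the paired-end column only, with 4.73 and 3.87 FPKM in WT and 1.95 and 1.27 in AROM. The facilitated carriers of glucose were not called in AROM. Slc2a1, the widely expressed glucose carrier, was between 7.10 and 11.9 FPKM over the 8 columns, lowest in AROM in both layouts, and Slc2a4 was at 104 and 114 in WT and 140 and 158 in AROM. The ratio of Slc2a4 to Slc2a1, 9.57 and 11.0 in WT, was 14.3 and 22.2 in AROM, 10.4 and 8.61 in CERM and 5.57 and 5.20 in BRCA, the highest in AROM and the lowest in BRCA in both layouts.

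Slc7a5 is the light chain of LAT1, the exchanger of large neutral amino acids, and pairs with the heavy chain Slc3a2 at the plasma membrane. Slc7a5 was at 12.4 and 10.4 FPKM in WT, 5.30 and 3.27 in AROM, 7.55 and 6.33 in CERM and 19.5 and 19.7 in BRCA. The genotypes did not overlap, with AROM the lowest and BRCA the highest. Slc3a2 spanned a narrower range, from 41.4 to 63.7 FPKM over the 8 columns, with WT the lowest in both layouts. The ratio of Slc3a2 to Slc7a5 was therefore 4.08 and 4.0 in WT, 12 and 17.2 in AROM, 7.23 and 10.1 in CERM, and 3.09 and 3.01 in BRCA. Slc3a2 also serves other light chains, and the ratio is one of RNA levels.

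The remaining carriers lower in AROM were Slc28a3 and Slc5a8. Slc28a3, a sodium-coupled nucleoside importer, was at 8.43 and 6.81 FPKM in WT, 3.2 and 1.65 in AROM, 9.43 and 6.12 in CERM and 7.91 and 7.52 in BRCA. Slc5a8, a sodium-coupled importer of short monocarboxylates, was at 3.37 and 3.27 in WT, 1.13 and 0.647 in AROM, 2.46 and 2.28 in CERM and 5.44 and 5.48 in BRCA. In both genes the AROM columns were below all others. Slc6a13, which takes up GABA and taurine, was the 1 carrier higher in AROM in both layouts, at 2.71 and 1.63 FPKM in WT, 6.77 and 10.2 in AROM, 3.88 and 15.2 in CERM and 3.60 and 3.33 in BRCA. The CERM columns of this gene differed 3.91-fold between layouts.

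Luminal epithelial and milk genes were also lower in AROM, and basal and myoepithelial markers less so. Of 6 basal and myoepithelial markers 0 were past 2-fold in either layout, with a median log2 ratio of -0.21 and -0.66. Of 12 luminal epithelial markers 6 were lower in both layouts and 0 higher, with a median log2 ratio of -1.02 and -1.53, and their summed level was 1116 and 903 FPKM in WT and 551 and 324 in AROM. Of 12 milk genes 8 were lower in both layouts, with a median of -2.11 and -2.21. The part of these in the lower carriers was not tested, and in RNA of a whole gland fewer cells of a type and less RNA per cell cannot be told apart.

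**Figure D2:**
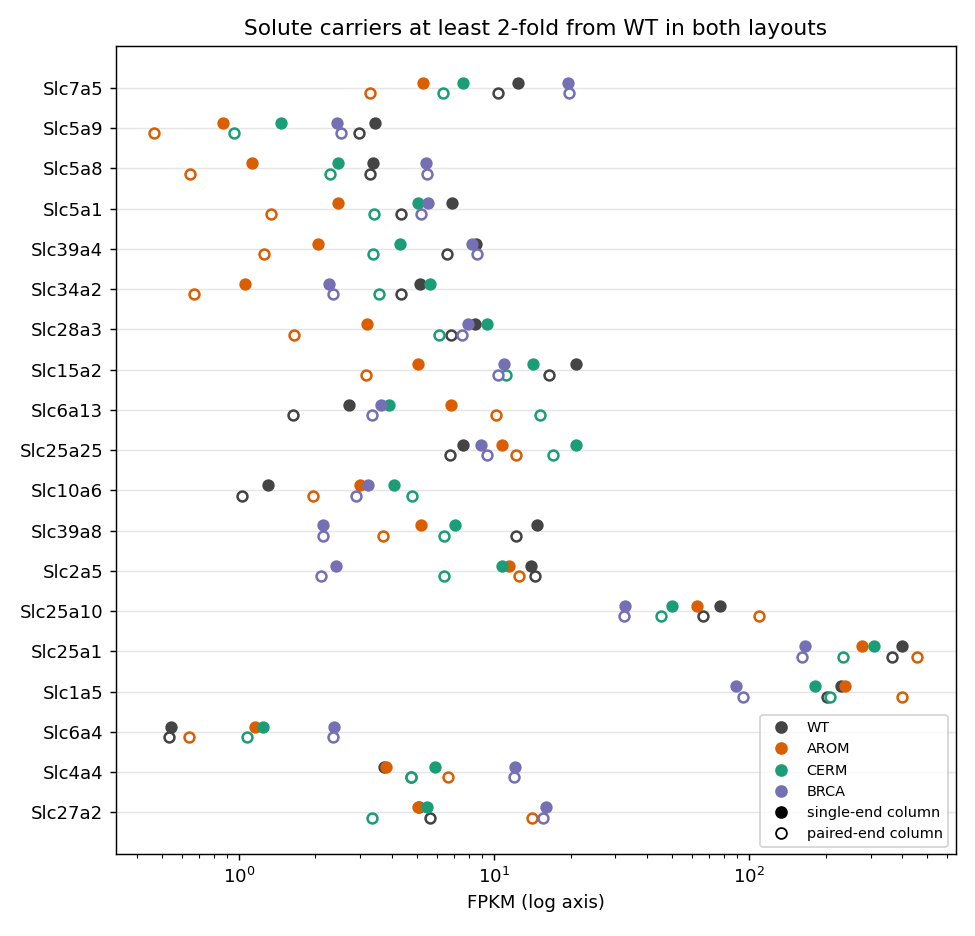
FPKM on a log axis of the 19 carriers at least 2-fold from WT in both layouts in any genotype, 1 row per gene, with filled points for single-end and open points for paired-end columns and 1 colour per genotype. The AROM points lie lowest in the first 8 rows, from Slc7a5 to Slc15a2, and the BRCA points lowest in Slc39a8, Slc2a5, Slc25a10, Slc25a1 and Slc1a5.

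Some carriers passed 2-fold in 1 layout of AROM only. Slc7a10, an exchanger of small neutral amino acids that is used as a marker of white fat cells, was at 24.1 and 19.2 FPKM in WT and 42.9 and 71.3 in AROM, and past 2-fold in the paired-end column only. Slc27a2, a fatty acid carrier and acyl-CoA synthetase, also passed it in the paired-end column only. It was at 5.08 and 5.63 in WT and 5.06 and 14.1 in AROM. Without passing 2-fold in either layout, Slc27a1, another of its family, was at 58.7 and 58.6 in WT and 53.1 and 108 in AROM. Slc25a20, the mitochondrial carnitine-acylcarnitine carrier, also under 2-fold in both layouts, was at 55.5 and 54.1 in WT and 59.7 and 103 in AROM. These 4 were higher in the paired-end than in the single-end AROM column, and so were white fat cell markers. Of these, 8 of 11 were at least 2-fold higher than WT in the paired-end column and 1 in the single-end one, with medians of 1.09 and 0.31. Their summed levels were 12648 and 30635 FPKM (paired-end WT and AROM) against 16381 and 24794 (single-end). Brown fat cell markers moved the same way by less. Their medians were 0.82 and 0.55 over 6 genes, and their summed levels 1842 and 3500 FPKM (paired-end WT and AROM) against 1575 and 2611 (single-end). The part of either list in the carriers was not tested. Slc1a4, another exchanger of small neutral amino acids, was 2-fold lower in the paired-end AROM column only, at 6.38 and 5.98 FPKM in WT and 3.19 and 2.46 in AROM. Over the whole mitochondrial class, 17 of 36 carriers were above WT in both layouts (47.2%, against 31.7% of all genes), with median log2 ratios of 0.06 and 0.19.

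Slc25a4 and Slc16a3, the lactate exporter of glycolytic cells, passed 2-fold in the single-end column of AROM only. Slc25a4 was at 558 and 736 FPKM in WT, 1289 and 847 in AROM, 1108 and 861 in CERM and 558 and 529 in BRCA. The ratio of Slc25a4 to Slc25a5, the ADP/ATP carrier of many tissues, was 1.81 and 2.88 in WT, 4.89 and 2.76 in AROM, 5.22 and 3.84 in CERM and 2.51 and 2.50 in BRCA. The ratio was further above WT in the single-end than in the paired-end column of CERM, and in AROM it was above WT in the single-end column only. Skeletal muscle genes were also further above WT in the single-end columns. All 10 markers were at least 2-fold higher than WT in the single-end column of AROM and 0 in the paired-end one, with medians of 1.63 and 0.29. In CERM these were 10 and 1, with 1.57 and 0.53. Their summed levels were 13699 and 22302 FPKM in WT, 39466 and 25491 in AROM and 41586 and 31633 in CERM. WT was thus lower in its single-end column, which adds to the contrast between layouts. The part of these markers in the carriers was not tested.

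In CERM, 2 carriers were higher than in WT in both layouts (1.04%, against 0.761% of all genes) and 0 were lower (all genes 0.372%). Slc25a25, a calcium-regulated mitochondrial carrier of ATP-Mg and phosphate, was at 7.57 and 6.72 FPKM in WT, 10.8 and 12.2 in AROM, 21.1 and 17.0 in CERM and 8.94 and 9.38 in BRCA. CERM was the highest and WT the lowest, with no overlap between them. Slc10a6, a sodium-coupled importer of sulphated steroids such as oestrone sulphate, was at 1.30 and 1.03 in WT, 2.99 and 1.95 in AROM, 4.05 and 4.76 in CERM and 3.21 and 2.88 in BRCA. All 3 engineered genotypes were above WT in both layouts, and CERM, at 3.12 and 4.62 times WT, was the only one past 2-fold in both layouts on the FPKM + 1 scale. Below the level rule, Slc13a2, a carrier of citrate and other dicarboxylates, was at 5.27 and 3.47 FPKM in CERM against 0.580 and 0.596 in WT, and Slc5a7, the choline carrier, at 1.53 and 2.93 against 0.0898 and 0.0115. Both are named after their values were seen.

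In the single-end CERM column 7 carriers were higher and 0 lower (all genes 3.23% and 0.839%), and in the paired-end column 8 higher and 2 lower (all genes 3.46% and 0.83%). Only the 2 above passed in both. In the paired-end column the higher ones included 3 carriers known from macrophages. Slc11a1, the metal exporter of macrophage phagosomes, was at 5.15 and 4.29 FPKM in WT, 6.41 in single-end and 15.2 in paired-end CERM, and 7.31 and 7.22 in BRCA. Slc37a2, a sugar-phosphate exchanger of the endoplasmic reticulum that is abundant in macrophages, was at 1.02 and 0.792 in WT, 1.43 and 9.79 in CERM and 3.01 and 2.79 in BRCA. Slc15a3, a lysosomal peptide and histidine carrier of immune cells, was at 2.12 and 1.77 in WT, 2.17 and 4.69 in CERM and 3.97 and 4.23 in BRCA. In each of the 3 the CERM column was past 2-fold from WT in the paired-end layout alone. Of macrophage markers more were past 2-fold in the same column, with 7 of 10 at least 2-fold higher than WT in the paired-end CERM column and 0 in the single-end one. Their median log2 ratios were 1.15 and 0.18, and their summed levels 699 (WT) and 1410 (CERM) FPKM in paired-end and 891 and 771 in single-end columns. Mpeg1 was listed at 0 in all 4 paired-end columns. Matrix and fibroblast genes did likewise, with 6 of 8 higher in the paired-end column and 0 in the single-end one. Their summed levels were 640 (WT) and 1655 (CERM) FPKM in paired-end and 1017 and 1057 in single-end columns. WT was thus lower in its paired-end column, which adds to the contrast between layouts. The part of either list in the carriers was not tested.

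**Figure D3:**
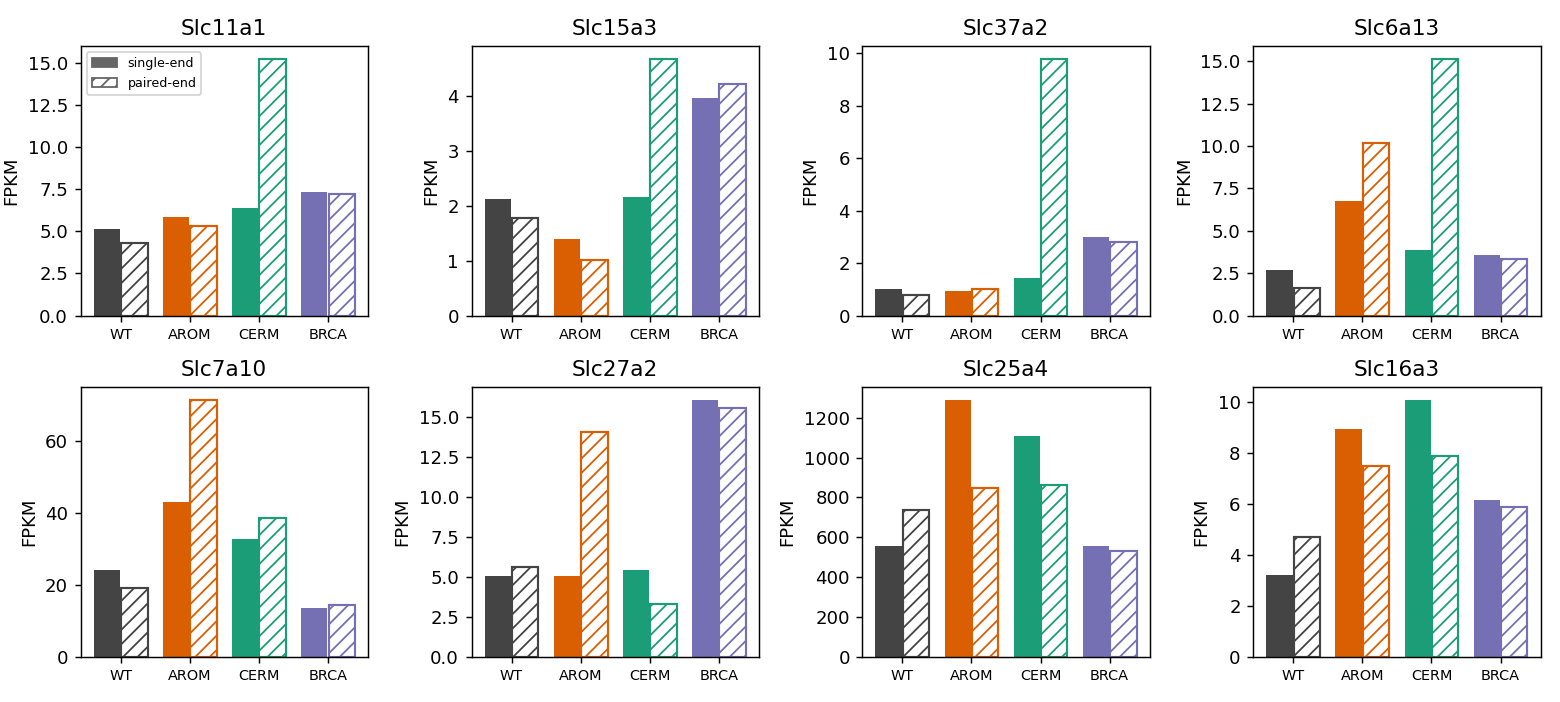
FPKM (bars from 0) of 8 carriers whose difference from WT depended on the layout or was past 2-fold in 1 layout in at least 1 genotype, with filled bars for single-end and hatched bars for paired-end columns. In Slc11a1, Slc15a3, Slc37a2 and Slc6a13 the paired-end CERM bar is the highest, in Slc7a10 the paired-end AROM bar, and in Slc25a4 the single-end AROM bar. No bar has an error, since each is 1 deposited value.

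The remaining carriers past 2-fold in 1 CERM column were of other kinds. In the single-end column Slc25a47, a mitochondrial carrier best known from liver, was at 7.29 FPKM, against 1.15 in the paired-end CERM column and 0.717 and 0.891 in WT. Slc8a3, the sodium-calcium exchanger of nerve and muscle, was at 1.38 and 2.25 in WT and 4.90 and 3.78 in CERM. Slc25a12, the aspartate-glutamate carrier of muscle and brain, was at 21.1 and 30.6 in WT and 44.9 and 35.2 in CERM. Slc38a4, an amino acid carrier, and Slc16a3 completed the single-end group of 5. In the paired-end column Slc35f3, reported as a thiamine carrier and placed here by its family with the nucleotide sugar carriers, was at 6.15 FPKM against 2.8 in the single-end CERM column, and Slc9a9, a sodium-proton exchanger of endosomes, at 6.51 against 4.47. Slc5a9 and Slc2a5 were the 2 lower there.

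Compared directly, 4 carriers were higher in CERM than in AROM in both layouts (2.07%, against 0.977% of all genes) and 0 lower (all genes 0.199%). They were Slc34a2, Slc15a2, Slc28a3 and Slc2a9, and in each the AROM columns were the lowest of the 4 genotypes, an order that the pick favours. This comparison uses the same AROM columns as the one with WT. Over the family AROM was the lowest genotype in both layouts for 59 carriers (30.6%, against 23.5% of all genes) and the highest for 24 (12.4%, against 16.2%). BRCA was the highest for 58 (30.1%, against 32.6%) and the lowest for 40 (20.7%, against 18.2%).

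In BRCA, 5 carriers were lower than in WT in both layouts and 3 higher (2.59% and 1.55%, against 1.04% and 2.38% of all genes). In single-end columns alone there were 5 lower and 3 higher (all genes 1.82% and 2.8%), and in paired-end columns alone 7 and 5 (all genes 1.31% and 4.22%). The 5 lower carriers were Slc39a8 and carriers of fructose, citrate, neutral amino acids and dicarboxylates. In each BRCA was the lowest genotype in both layouts, an order that picking them for low BRCA levels favours. Slc39a8, the metal importer described above, was lower than WT by a log2 ratio of -2.32 and -2.08.

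Slc2a5, the fructose carrier, was at 14.0 and 14.5 FPKM in WT, 11.5 and 12.6 in AROM, 10.7 and 6.36 in CERM and 2.40 and 2.11 in BRCA. WT was the highest, and the BRCA columns were below all others by a larger ratio than that between the layouts of any genotype. Slc1a5 was at 229 and 203 FPKM in WT, 238 and 397 in AROM, 182 and 207 in CERM and 88.8 and 94.5 in BRCA. Slc25a1 was at 397 and 363 in WT, 277 and 458 in AROM, 309 and 233 in CERM and 166 and 161 in BRCA. Slc25a10, the mitochondrial dicarboxylate carrier, was at 77.0 and 66.4 in WT, 62.8 and 110 in AROM, 49.9 and 45.2 in CERM and 32.6 and 32.4 in BRCA. The last 3 are abundant carriers, and their BRCA columns did not overlap those of any other genotype. Slc2a4, at 104 and 114 FPKM in WT and 62.9 and 62.1 in BRCA, was also lowest in BRCA but not past 2-fold. White fat cell markers were lower in BRCA too, with a median log2 ratio of -0.63 and -0.45 over 11 genes, of which 2 were 2-fold lower in both layouts, and a summed level of 10472 and 9768 FPKM. Their part in these carriers was not tested.

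The 3 carriers higher in BRCA were Slc27a2, Slc4a4 and Slc6a4. Slc27a2 was at 5.08 and 5.63 FPKM in WT, 5.06 and 14.1 in AROM, 5.46 and 3.33 in CERM and 16.1 and 15.6 in BRCA, so that the paired-end AROM column came close to BRCA. Slc4a4, the sodium-bicarbonate cotransporter, was at 3.72 and 4.74 in WT, 3.77 and 6.62 in AROM, 5.86 and 4.74 in CERM and 12.1 and 12 in BRCA. BRCA alone stood above the rest. Slc6a4, the serotonin transporter, was near the level rule, at 0.542 and 0.531 in WT, 1.16 and 0.640 in AROM, 1.25 and 1.08 in CERM and 2.37 and 2.33 in BRCA. It met that rule only with the BRCA columns, where it is high. With 1 FPKM required in all 8 columns 2 carriers were higher in BRCA, and the share of all genes under that stricter rule is not given here. Of the 18 ion carriers 13 were above WT in both layouts in BRCA (72.2%, against 49.7% of all genes), Slc9a9 by log2 ratios of 0.80 and 1.14 and Slc12a2, the sodium-potassium-chloride cotransporter, by 0.36 and 0.40. In 1 layout only, the paired-end one, Slc41a3 and Slc15a5 were 2-fold lower and Slc9a9 and Slc37a2 higher. After median-ratio scaling 13 of the ion carriers were above and after quantile normalization 10. Over all genes the median was 0.02 and 0.01 after the first scaling and -0.03 and -0.04 after the second. The share of all genes above after scaling is not given here. Macrophage and neutrophil markers were higher in BRCA, with medians of 1.03 and 1.43 over 10 genes and 2.40 and 2.76 over 4. Other lists were higher too, among them T cell (0.89 and 0.98 over 6), B cell (2.20 and 2.48 over 2) and matrix and fibroblast genes (0.64 and 1.42 over 8). Medians of the milk, white fat cell, basal, endothelial and Schwann cell lists were below 0 in both layouts. The part of any list in the higher carriers was not tested.

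Between BRCA and AROM, 8 carriers were higher and 4 lower in BRCA in both layouts (4.15% and 2.07%, against 4.12% and 1.44% of all genes), so that neither share was far from that of all genes. The higher ones included Slc7a5 and Slc38a2, a sodium-coupled importer of small neutral amino acids, which was at 50.3 and 49.0 FPKM in BRCA, 23.3 and 16.6 in AROM and 30.7 and 27.4 in WT. The lower ones were Slc1a5, Slc2a4, Slc2a5 and Slc7a10. Slc1a5 and Slc7a5 both carry neutral amino acids and differed in which genotypes stood at the ends. In both layouts Slc1a5 was highest in AROM and lowest in BRCA, and Slc7a5 lowest in AROM and highest in BRCA. In the single-end columns Slc1a5 in AROM was only slightly above WT, by less than the AROM layouts differed. Between BRCA and CERM 3 were higher and 5 lower in BRCA (1.55% and 2.59%, against 1.3% and 0.968% of all genes). The 3 were Slc27a2, Slc7a5 and Slc9a3r1, a scaffold protein that carries the name but moves no solute, and the 5 were Slc1a5, Slc2a5, Slc39a8, Slc41a3 and Slc7a10.

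**Figure D4:**
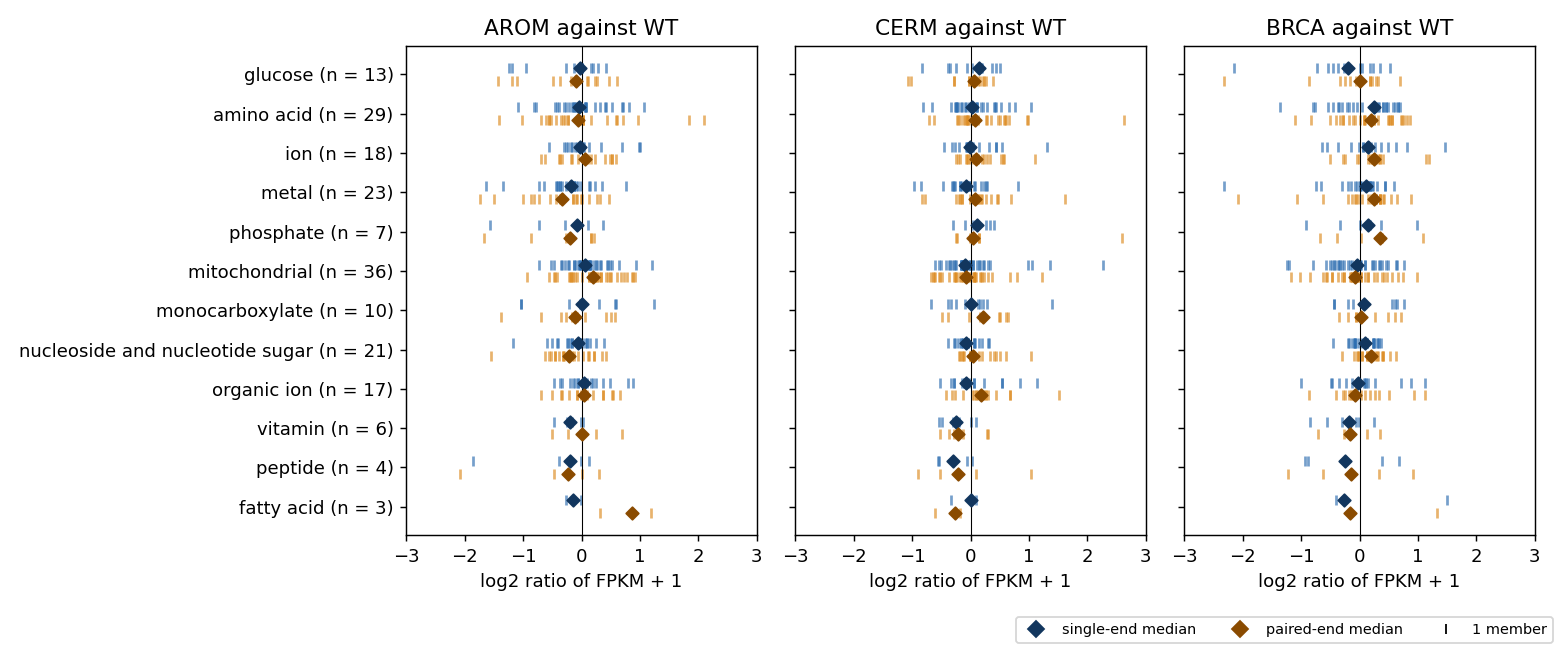
Log2 ratio of FPKM + 1 to WT of every carrier (ticks) by substrate class, with the class median as a diamond, blue for single-end and brown for paired-end columns. The 4 genes that move no solute and the 2 in no class are left out. The metal class in AROM has medians of -0.18 and -0.34, and the mitochondrial class 0.06 and 0.19.

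Genes that work with the carriers were read from lists chosen by role. Of 15 metal-handling genes, Atp7b, a copper-exporting pump, was lower in AROM and in BRCA in both layouts, at 3.69 and 3.41 FPKM in WT, 0.412 and 0.260 in AROM, 1.65 and 1.22 in CERM and 0.809 and 0.770 in BRCA. Mt2, a zinc-binding metallothionein, was the 1 higher in BRCA, at 104 and 93.1 FPKM in WT and 267 and 248 in BRCA. Of 8 genes of glucose uptake and use, B4galt1, the galactosyltransferase that forms lactose synthase with alpha-lactalbumin, was the 1 lower in AROM, at 48.9 and 42.6 FPKM in WT and 22.2 and 18.7 in AROM. Of 8 amino acid response genes, Ddit4 was higher in CERM, at 10.9 and 8.86 FPKM in WT and 26.7 and 27.1 in CERM. None of 5 genes of lactate handling was called in any genotype, and of 5 Slco genes, another organic anion carrier family, Slco2a1, a prostaglandin carrier, was higher in BRCA, at 3.78 and 3.12 FPKM in WT and 8.81 and 8.82 in BRCA.

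**Figure D5:**
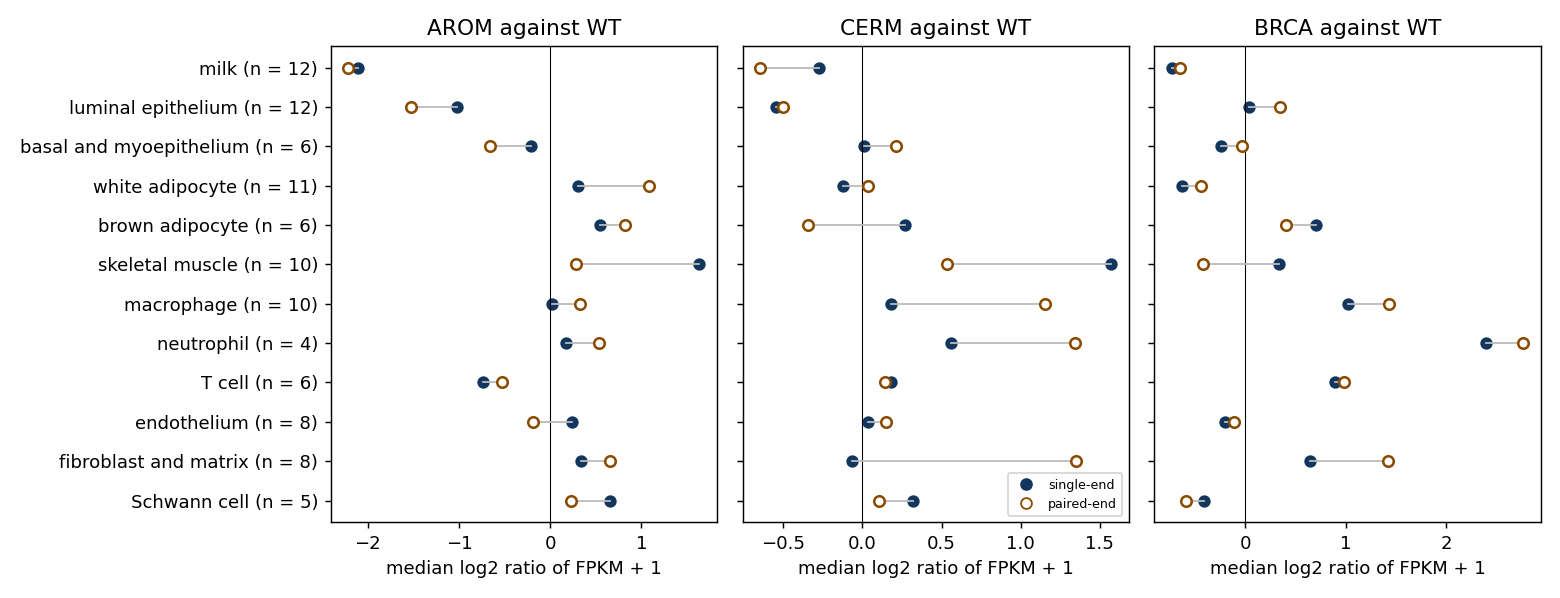
Median log2 ratio of FPKM + 1 to WT of cell type marker lists, with n the number of genes analysed, filled points for single-end and open points for paired-end columns, and a different horizontal range in each panel. The luminal list lies at -1.02 and -1.53 in AROM, the macrophage list at 0.18 and 1.15 in CERM, and the muscle list at 1.63 and 0.29 in AROM.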

How the data were processed

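The authors deposited 1 table of FPKM values for 30843 loci, made with FastQC, Trim Galore, TopHat and Cufflinks on mm9 per the submitters' processing notes. Versions, annotation, strand setting and the way libraries were combined: not given in the sources used here. FPKM is already scaled by transcript length and mapped fragments, and reads shared by near-identical genes, such as Slc25a4 and Slc25a5 with their processed copies, may be assigned unevenly. No column of single libraries was present, so the planned limma fits were not run and no p-value is given.

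Loci with 1 symbol of their own numbered 20420. Another 16 Slc loci share their symbol with another locus, Slc39a14 among them, and 14 bear several symbols, and none of these was used. The 11565 loci with at least 1 FPKM in at least 4 of 8 columns were the background. Log2 ratios of FPKM + 1 were computed per layout, a scale that understates ratios of low genes, while plain ratios are of FPKM. A gene was called when it was at least 2-fold from WT in the same direction in both layouts. Named genes are those called, ranked by the smaller of their 2 ratios, up to 8 a direction, then carriers with known roles in the gland, the highest of each class, and up to 4 genes of each partner list. Slc5a8, 9th of the lower carriers in AROM, and the carriers past 2-fold in 1 layout or between engineered genotypes only were chosen after their values were seen. The carriers, classes and lists were chosen with earlier results of these data known. Alternatives were other pseudocounts, no level filter, 1 FPKM in all 8 columns, genes listed at 0 left out, 1.5-fold, 2 scalings and, chosen after seeing the data, each layout alone. The partner list of the sodium pump is not reported here. The analysis used Python, pandas, NumPy and matplotlib.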

Additional observations from a re-analysis of the deposited data

How the results depend on the processing

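No called carrier changed direction under any alternative tried, but these alternatives could hardly have turned one. Pseudocounts, level filters and fold cutoffs cannot change the sign of a ratio. The 2 scalings moved the median of all genes by far less than the 2-fold of a call. The count called in AROM (10) was 1 with a pseudocount of 5 FPKM, which leaves Slc15a2, and 21 at 1.5-fold. The count in CERM (2) was 4 with a pseudocount of 0.1, 0 with one of 5, 4 with no level filter and 10 at 1.5-fold, and 7 in single-end and 10 in paired-end columns alone. The count in BRCA (8) was 4 with a pseudocount of 5 and 31 at 1.5-fold. Shares of all genes with other pseudocounts, with no level filter and at 1.5-fold are not given here, so these counts have no background. With 1 FPKM required in all 8 columns, which 176 carriers met, 7 were called in AROM, 2 in CERM and 7 in BRCA. The shares of all genes under that rule are not given here either. No carrier was listed at 0 in any column, so leaving out genes listed at 0 could not change a count. A larger pseudocount shrinks ratios of low levels by construction. The median of the carriers in paired-end columns was 0.0404 in AROM after median-ratio scaling and 0.0335 after quantile normalization, -0.0306 in CERM after quantile normalization, and in BRCA 0.0152 after median-ratio scaling, -0.0714 after quantile normalization and 0.0188 with no level filter. In single-end BRCA it was -0.0486 after quantile normalization. The cause of these shifts was not tested. The other 55 counts and medians stayed within 1.5 times the count or within 0.0763, the SD between genotypes of the layout difference of the medians. Ratios of single carriers are not among these 55. After quantile normalization Slc5a1 in AROM and Slc6a4 in BRCA were under 2-fold. No paired analysis was possible because the table has no column per library, and leaving out replicates could not be run for the same reason. Depth is unknown, so counting error cannot be given for carriers near 1 FPKM such as Slc6a4 and Slc25a47.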
